A study of Mus musculus with 2 samples.

Results

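The 42 mitosis and kinetochore genes described here are a fixed set of named genes whose products build the spindle, hold chromosomes to it, check that attachment and divide the cell. All 42 had a row among the 23276 genes of the deposited table, and all 42 passed the filter of a mean of at least 1 FPKM (fragments counted on a gene, per length of its transcript and per mapped fragment of the library), which 11349 genes passed. The KO group was Fendrr KO, in which both alleles of the long non-coding RNA gene Fendrr had been removed from embryonic stem cells by homologous recombination. The WT group was wild type. Both groups were heart ventricle at E12.5, on a C57BL/6 x 129SV background. Embryos of both came from stem cells by tetraploid complementation, in which a tetraploid host supplies mainly the extra-embryonic tissue. For each genotype, RNA of 4 ventricles was pooled into 1 library of ribosomal RNA-depleted total RNA. How many stem cell clones were used is not given in the sources used here.

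With 1 library per genotype there was no replicate error and no test of genotype, and "lower" and "higher" below compare KO with WT in these libraries only. The libraries were sequenced on separate runs, and the WT run was stopped early and its bases were called by another route than those of the KO run. Genotype and run therefore cannot be told apart. Steps in the lowest FPKM values put the depth at about 16400000 mapped fragments in KO and 13100000 in WT, provided that values had been scaled to all mapped fragments. At that depth the members rested on an estimated 217 to 11756 reads each in KO and 188 to 10885 in WT. The counting error this gives on a log2 ratio was 0.019 to 0.14, with a median of 0.061 (SE). It covers counting only, since amplified reads without molecular identifiers are not independent molecules. Fendrr had no row of its own, and under its synonym 1110050K14Rik the table held 0 for KO and for WT, so the labels could not be checked on the targeted gene. Foxf1, the gene next to it, was at 2.46 FPKM in KO and 0.0315 FPKM in WT. Myl2, a marker of ventricular muscle, was high in both, at 9478 FPKM in KO and 9103 FPKM in WT.

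Mitosis is driven by the kinase Cdk1 with cyclin B and by the Polo and Aurora kinases. Condensin compacts the chromosomes, kinetochores assembled on CENP-A chromatin bind the spindle microtubules, and the spindle checkpoint holds back the anaphase promoting complex until every kinetochore is attached. Heart muscle cells of the embryo still divide, as do the endocardial, mesenchymal and blood cells beside them. The transcripts of many, though not all, of these genes accumulate in the G2 and M phases. In pooled tissue, fewer dividing cells and less RNA per dividing cell cannot be told apart.

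The mitosis and kinetochore genes were lower in KO as a set, by amounts that were small but differed from gene to gene. Of 42 members, 41 had a lower value in KO than in WT, against 67.0% of all genes measured. Their median FPKM was 23.8 in KO and 30.7 in WT, and the median ratio of KO to WT was 0.817, within a range of 0.605 to 1.07. The log2 ratios had an SD of 0.17 between members. On the log2(FPKM + 1) scale used for all ratios below, which slightly understates low genes, the median was -0.28. All genes measured had a median of -0.11, so the members lay 0.17 below it (difference -0.17), and 37 of 42 were under it, where 50.0% of all genes lie by definition. Together they summed to 1271 FPKM in KO and 1567 FPKM in WT, which was 0.379% of the summed FPKM of the library in KO and 0.426% in WT.

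Few single members stood far apart. Spc24 and Plk1 were at least 1.5-fold lower in KO (2 of 42), against 3.60% of all genes measured, and none was 1.5-fold higher, against 1.54%. None was at least 2-fold lower or higher, where the shares of all genes were 0.388% and 0.467%. When the KO values were rescaled to bring the all-gene median to 0, the genes at least 1.5-fold apart changed from 175 higher and 408 lower to 301 higher and 200 lower, and no member was among them. The lower position of the set thus lay in many small differences: 20 members had a log2 ratio under -0.30, of which 5 were under -0.50, and 4 lay above -0.10.

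**Figure D1:**
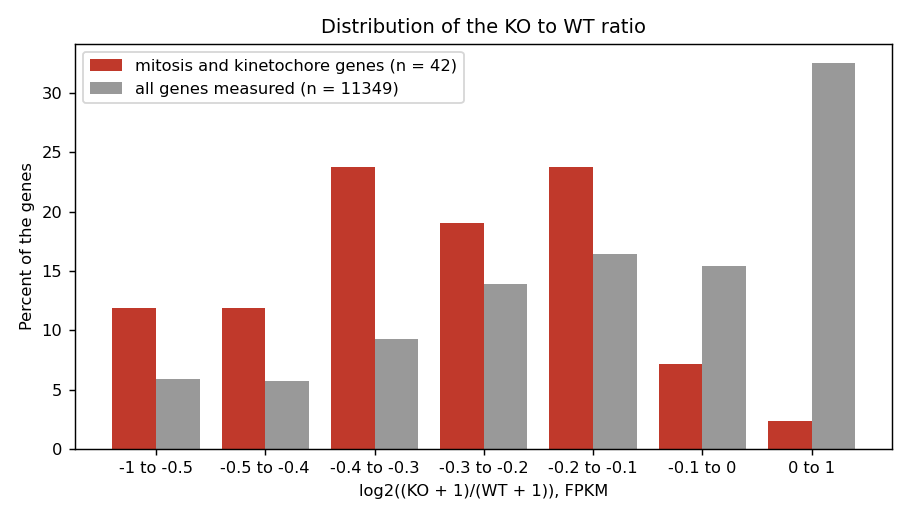
Percent of the genes (vertical axis) in each step of the log2 ratio of KO to WT (horizontal axis, FPKM with a pseudocount of 1) for the 42 mitosis and kinetochore genes (red) and all 11349 genes measured (grey). Of the members 2.38% lay above 0, against 32.5% of all genes in the step from 0 to 1.

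The order of the members by level was nearly the same in both libraries. Top2a and Smc4 were the most abundant, with Birc5, Prc1 and Spc25 after them, and Cenpn, Incenp and Espl1 were the least abundant in KO and in WT alike. Across the 42 genes the Spearman correlation of FPKM between KO and WT was 0.98, which describes genes of the same 2 libraries and is no replicate check. The members that changed place most were Spc24, at rank 26 in KO and 17 in WT, Plk1 at 39 in KO and 34 in WT, and in the other direction Kif20b, at 31 in KO and 36 in WT, Ncapd2, at 14 in KO and 19 in WT, Nuf2, at 13 in KO and 18 in WT, and Aurka, at 21 in KO and 26 in WT.

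**Figure D2:**
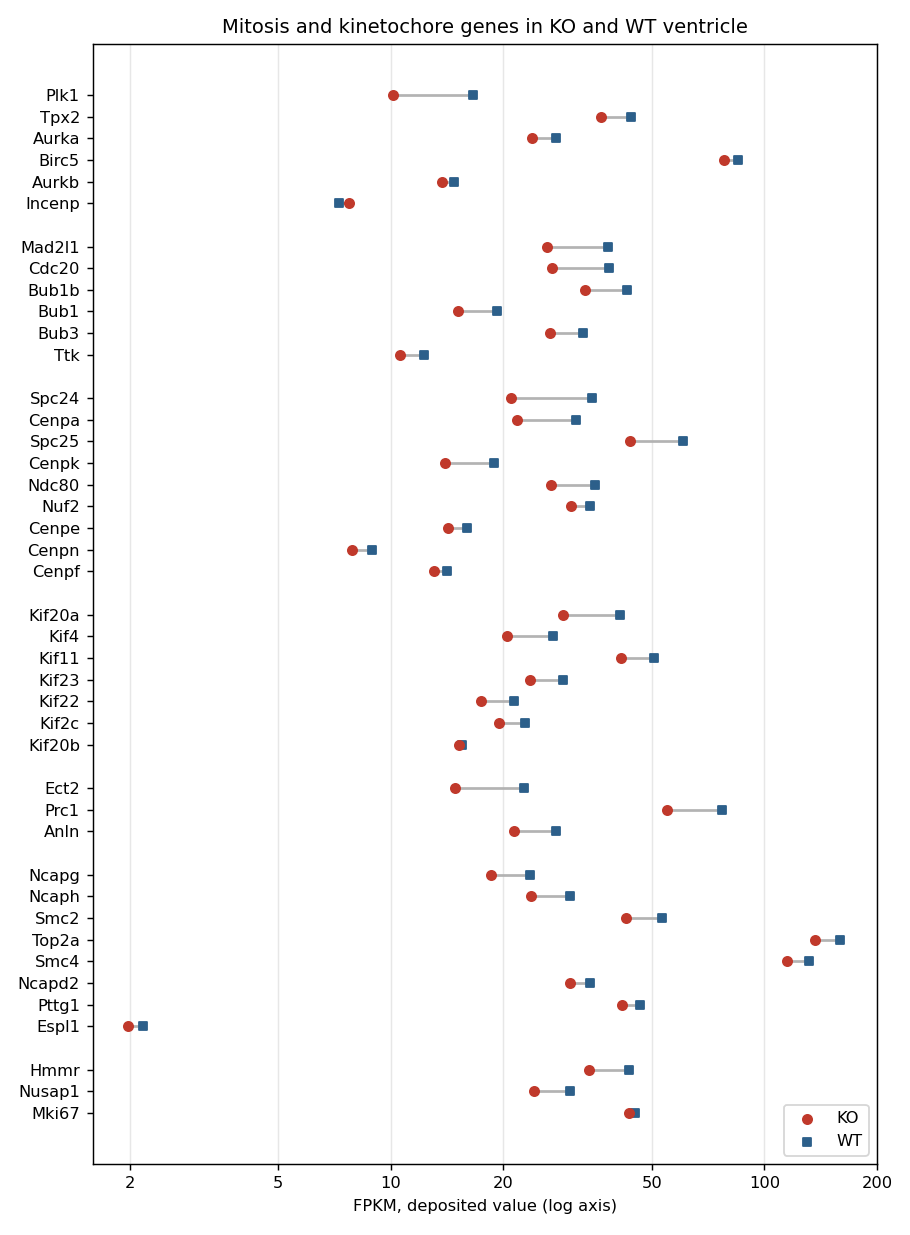
Deposited FPKM (horizontal log axis) of each of the 42 genes in KO (red circles) and WT (blue squares), 1 library each, grouped by role from kinases at the top to chromosome coat at the bottom. Circles lie left of squares for every gene except Incenp, at 7.75 FPKM in KO and 7.24 FPKM in WT.

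Promoters of genes that peak in G2 and M commonly carry the CHR element, which MuvB complexes bind together with B-Myb or FoxM1, and CCAAT boxes, which NF-Y binds. The promoter windows of RefSeq on GRCm38.p6, from 250 bases before to 50 bases after the start, were searched on both strands for TTTGAA (the CHR element) and for CCAAT. Windows were found for 36 members and not for Aurkb, Incenp, Kif20a, Smc4, Spc24 and Tpx2. The letters TTTGAA occurred in 27 of the 36 (75.0%), against 20.2% of all 27025 genes with a window. Among the 8313 of these genes that were measured, the share was 13.9%. In 24 of the 27 members the nearest match began within 50 bases of the start. The share at that distance was not computed for other genes. CCAAT occurred in 26 of the 36 (72.2%), against 41.1% of all genes with a window and 43.6% of those measured. Both occurred in 23 (63.9%), against 7.97% of all and 5.89% of those measured. In no member did a match of the one share a base with a match of the other. A match is a description of the letters and not a measured binding site. The stretches below show these elements in genes with a low KO to WT ratio and in genes with a ratio near 1, with every TTTGAA and CCAAT match in capitals, read 5′ to 3′ on the strand of the gene (TTCAAA and ATTGG are matches on the other strand). The first 6 are 80 bases long and the last 4 are the 30 bases around matches that lie at or after the start.
Cdc20: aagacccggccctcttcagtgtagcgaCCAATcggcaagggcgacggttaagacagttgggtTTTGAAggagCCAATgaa
Prc1: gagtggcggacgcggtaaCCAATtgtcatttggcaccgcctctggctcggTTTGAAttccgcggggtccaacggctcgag
Ncapg: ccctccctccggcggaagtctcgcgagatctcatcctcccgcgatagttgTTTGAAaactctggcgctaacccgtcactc
Kif11: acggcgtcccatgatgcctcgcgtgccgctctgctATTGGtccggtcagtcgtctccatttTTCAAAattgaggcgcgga
Espl1: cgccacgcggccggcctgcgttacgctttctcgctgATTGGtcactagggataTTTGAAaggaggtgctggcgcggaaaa
Mki67: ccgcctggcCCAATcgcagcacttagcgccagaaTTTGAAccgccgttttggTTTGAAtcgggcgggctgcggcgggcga
Plk1: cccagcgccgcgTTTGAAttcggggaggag
Cenpa: gggcgggtgatttTTTGAActgctggcgac
Kif23: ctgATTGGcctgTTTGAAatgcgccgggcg
Kif20b: gccattgTTTGAATTTGAAaaccgggagga

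On GRCm38.p6 the printed stretches were chr4:118437344-118437423 (minus strand) for Cdc20, chr7:80294396-80294475 (plus) for Prc1, chr5:45669845-45669924 (plus) for Ncapg, chr19:37376302-37376381 (plus) for Kif11 and chr15:102296213-102296292 (plus) for Espl1. Those of the others were chr7:135716450-135716529 (minus) for Mki67, chr7:122159453-122159482 (plus) for Plk1, chr5:30666889-30666918 (plus) for Cenpa, chr9:61946780-61946809 (minus) for Kif23 and chr19:34922358-34922387 (plus) for Kif20b. Counted from the start, the TTTGAA of Cdc20 began at position -18, that of Prc1 at -30 (the later of its 2 listed starts) and that of Plk1 at 31. The 27 members with TTTGAA had a median log2 ratio of -0.28 and the 9 without it -0.31. For CCAAT the order was the other way, with -0.30 in the 26 members with it and -0.26 in the 10 without. Among the other genes measured, the 1125 with TTTGAA in the window had a median of -0.11, as had all other genes measured with a window. Members with 2 TTTGAA matches included Mki67 and Kif20b, with FPKM ratios near 1, and Ect2, with a log2 ratio of -0.58. Mad2l1, with none, had one of -0.52.

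Among the mitotic kinases and their partners, Plk1 stood apart from the Aurora kinases. This group, counted with the chromosomal passenger genes described below, had 6 genes and a median log2 ratio of -0.17. That was the closest of the 7 role groups to the all-gene median of -0.11, with 4 genes below it and 2 above. Plk1, the Polo kinase that acts on centrosomes, kinetochores and the cleavage furrow, was at 10.2 FPKM in KO and 16.6 FPKM in WT, a log2 ratio of -0.66 with a counting SE of 0.10. Aurka, the spindle pole Aurora kinase, was at 23.8 FPKM in KO and 27.6 FPKM in WT, a log2 ratio of -0.20. Its activator Tpx2, which also nucleates microtubules near chromatin, was at 36.4 FPKM in KO and 44.0 FPKM in WT (-0.27). Plk1 was thus the only 1 of the 6 genes in this group at least 1.5-fold lower, against 3.60% of all genes. Read against the Mki67 level of the same library, which is free of the scaling between libraries, Plk1 was 0.235 of Mki67 in KO and 0.368 of Mki67 in WT. Mki67 itself differed little between the libraries (log2 ratio -0.057), so most members were lower in KO on this measure. A pseudocount of 5, and the median, upper-quartile, trimmed-mean and quantile scalings, each took Plk1 inside the 1.5-fold limit.

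The chromosomal passenger complex, which corrects wrong attachments through Aurora B, had 3 members here that differed little between the libraries. Aurkb, its kinase, was at 13.7 FPKM in KO and 14.8 FPKM in WT. Birc5, which encodes survivin, was at 77.8 FPKM in KO and 85.2 FPKM in WT. Incenp, the scaffold, was at 7.75 FPKM in KO and 7.24 FPKM in WT, and was the one member with a higher value in KO, by less than its counting error (log2 ratio 0.086, SE 0.11). Their median log2 ratio of -0.10 was close to the -0.11 of all genes. The remaining subunit, borealin, encoded by Cdca8 outside the set, was at 30.2 FPKM in KO and 40.5 FPKM in WT (-0.41).

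All 6 genes of the spindle checkpoint and of its target lay below the all-gene median, with a group median of -0.35. Mad2l1, which encodes the checkpoint effector Mad2, was at 26.2 FPKM in KO and 38.1 FPKM in WT, a log2 ratio of -0.52. Cdc20, the activator of the anaphase promoting complex that Mad2 and BubR1 inhibit, was at 27.0 FPKM in KO and 38.4 FPKM in WT (-0.49). These were the lowest in the group, each with a counting SE of about 0.07. Bub1b, which encodes BubR1, was at 33.1 FPKM in KO and 43.0 FPKM in WT (-0.37). The kinase Bub1 was at 15.1 FPKM in KO and 19.3 FPKM in WT (-0.33), and Bub3, which brings both to the kinetochore, at 26.6 FPKM in KO and 32.6 FPKM in WT (-0.28). Ttk, which encodes the kinase Mps1 at the top of the checkpoint, had the smallest difference, at 10.6 FPKM in KO and 12.2 FPKM in WT (-0.19).

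All 9 kinetochore and centromere genes were lower in KO and below the all-gene median, with a group median of -0.38. The 4 subunits of the Ndc80 complex, the kinetochore's main grip on the microtubule, were unequal. Spc24, on the side of the complex that faces the chromosome, was at 20.9 FPKM in KO and 34.6 FPKM in WT, the lowest log2 ratio of all members (-0.70, counting SE 0.088). Its direct partner Spc25 was at 43.8 FPKM in KO and 60.4 FPKM in WT (-0.45). Ndc80, which binds the microtubule, was at 26.9 FPKM in KO and 35.2 FPKM in WT (-0.38), whereas Nuf2, its own partner, was at 30.4 FPKM in KO and 34.1 FPKM in WT (-0.16). Relative to Mki67 of the same library, a measure on which most members were lower in KO, Spc24 was 0.483 in KO and 0.768 in WT. The 2 subunits of the chromosome-facing side had the lower ratios, but Spc25 and Ndc80, with counting SEs of 0.064 and 0.065, were not clearly apart. Spc24 and Spc25 also had the shorter transcripts, of 1366 and 1352 nt, against 2201 nt for Ndc80 and 2405 nt for Nuf2. Spc24 dropped inside the 1.5-fold limit with median, upper-quartile and quantile scaling.

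At the centromere itself, Cenpa, the histone H3 variant that marks where a kinetochore forms, was at 21.8 FPKM in KO and 31.3 FPKM in WT, a log2 ratio of -0.50 with a counting SE of 0.11. Cenpk, of the inner plate that bridges CENP-A chromatin to the outer kinetochore, was at 13.99 FPKM in KO and 18.9 FPKM in WT (-0.41). Cenpn, which reads the CENP-A nucleosome, was at 7.88 FPKM in KO and 8.90 FPKM in WT (-0.16). Of the large outer proteins, Cenpe, a kinesin that carries chromosomes to the spindle equator, was at 14.2 FPKM in KO and 16.0 FPKM in WT (-0.16). Cenpf, which forms part of the fibrous corona, was at 13.0 FPKM in KO and 14.2 FPKM in WT (-0.11), level with all genes.

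The 7 kinesins had values in KO that were lower by unequal amounts. Kif20a, a motor of the central spindle that recruits Plk1 there, was at 28.9 FPKM in KO and 41.2 FPKM in WT, a log2 ratio of -0.50. Its relative Kif20b was at 15.2 FPKM in KO and 15.5 FPKM in WT (-0.025), the smallest difference of all members. Kif4, a chromokinesin that also limits midzone length, was at 20.4 FPKM in KO and 27.2 FPKM in WT (-0.40). A processed copy, Kif4-ps, was listed at 0 in KO and in WT. Between these extremes lay Kif11, the Eg5 motor that pushes the poles apart and the most abundant kinesin of the group, at 41.4 FPKM in KO and 50.5 FPKM in WT (-0.28). Kif22, a chromokinesin that drives chromosome arms outward, and the microtubule depolymerase Kif2c had log2 ratios of -0.28 and -0.22.

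The 3 members grouped under cytokinesis had the lowest median of the role groups, -0.49, with Ect2 and Prc1 well below Anln. Kinesins that act at the midzone were counted in their own group, with Kif20a at -0.50, Kif4 at -0.40 and Kif23 at -0.28. Ect2, the exchange factor that activates RhoA at the cleavage furrow, was at 14.9 FPKM in KO and 22.8 FPKM in WT, a log2 ratio of -0.58. Prc1, which bundles the antiparallel microtubules of the midzone, was at 54.7 FPKM in KO and 77.2 FPKM in WT (-0.49). Anln, which encodes the furrow protein anillin, was at 21.4 FPKM in KO and 27.7 FPKM in WT (-0.36). Ect2 thus lay just inside the 1.5-fold limit, and was beyond it with a pseudocount of 0.1. Centralspindlin, which brings Ect2 to the midzone, pairs the kinesin Kif23 with the GTPase regulator encoded by Racgap1. Kif23 was at 23.6 FPKM in KO and 28.9 FPKM in WT (-0.28), and Racgap1, outside the set, at 23.2 FPKM in KO and 32.3 FPKM in WT (-0.46).

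**Figure D3:**
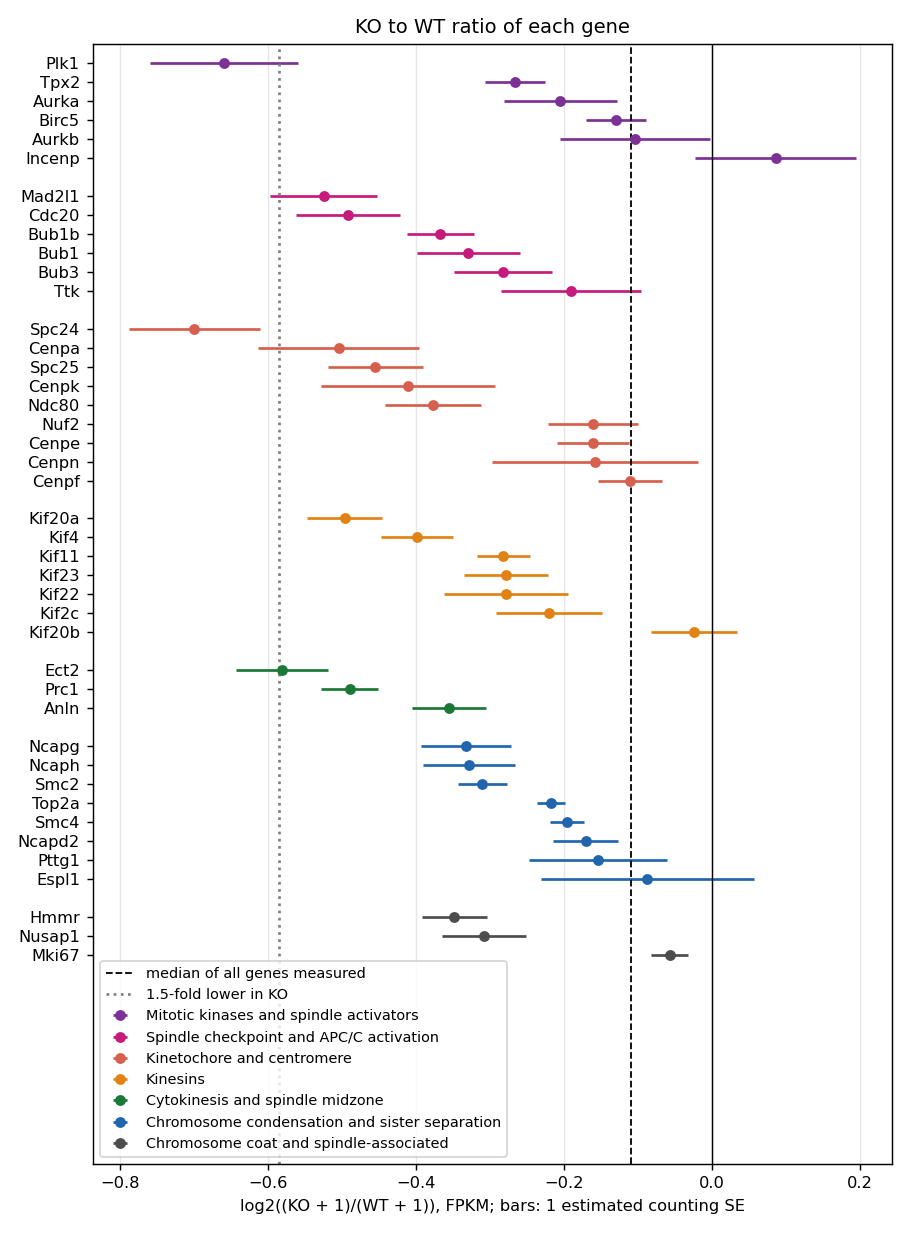
The log2 ratio of KO to WT (horizontal axis, FPKM with a pseudocount of 1) of each gene, coloured by role, with bars of 1 counting SE estimated from the depth. The dashed line is the median of all genes measured (-0.11) and the dotted line the 1.5-fold limit, which Spc24 and Plk1 pass.

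Genes of chromosome structure had smaller differences than the checkpoint, kinetochore and cytokinesis groups, with a median of -0.21 over 8 members. Top2a, the topoisomerase that untangles sister chromatids and the most abundant member, was at 137 FPKM in KO and 159 FPKM in WT, a log2 ratio of -0.22 with a counting SE of 0.019. The 5 condensin I genes were all lower and close together, from -0.33 to -0.17. Smc4, one of its paired ATPases, was at 115 FPKM in KO and 131 FPKM in WT, and Smc2, the other, at 42.7 FPKM in KO and 53.2 FPKM in WT. The subunits Ncapg and Ncaph had ratios of -0.33, at 18.5 FPKM in KO and 23.6 FPKM in WT for Ncapg and at 23.8 FPKM in KO and 30.1 FPKM in WT for Ncaph, and Ncapd2 had a ratio of -0.17. The 3 subunits specific to condensin II, outside the set, had a median of -0.33. Separase and its inhibitor securin, which release the sister chromatids at anaphase, differed least: the separase gene Espl1 was at 1.98 FPKM in KO and 2.17 FPKM in WT, and the securin gene Pttg1 at 41.7 FPKM in KO and 46.5 FPKM in WT. For Espl1, on about 217 reads in KO and 188 in WT, the difference was below its counting SE of 0.14.

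Mki67, the gene of the proliferation marker Ki-67 that coats mitotic chromosomes, was close to equal, at 43.3 FPKM in KO and 45.1 FPKM in WT (log2 ratio -0.057, counting SE 0.025). Hmmr, a microtubule-associated protein of the spindle, was at 34.0 FPKM in KO and 43.5 FPKM in WT (-0.35), and Nusap1, which links microtubules to chromatin, at 24.1 FPKM in KO and 30.1 FPKM in WT (-0.31). Mki67 was thus 1 of the 5 members above the all-gene median of -0.11, with 37 below it. Its transcript is long, at 10061 nt, and all genes of at least 8000 nt had a median of -0.044, which Mki67 was below. The direction of 7 members depended on the scaling: Mki67, Kif20b and Aurkb were higher in KO under each of the 4 other scalings, Cenpf under 3, Birc5 under 2, and Espl1 and Smc4 under 1 each.

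Transcript length moved with the ratio. Across the 42 members the Spearman correlation of the log2 ratio with transcript length was 0.35, and across 10570 genes measured with a length it was 0.11, both given as descriptions of these libraries. The 8 members of 1000 to 2000 nt had a median log2 ratio of -0.43, against -0.16 for all genes of that length, while the 2 members of at least 8000 nt, Cenpf and Mki67, had -0.084, against -0.044. Of the 42 members, 39 lay below the median of all genes of their own length band. By level, 34 members had a mean of 10 to 50 FPKM and a median of -0.31, against -0.14 for the 3791 genes at that level, and 36 of 42 lay below the median of their level band. The part of length in the difference between members was not tested.

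**Figure D4:**
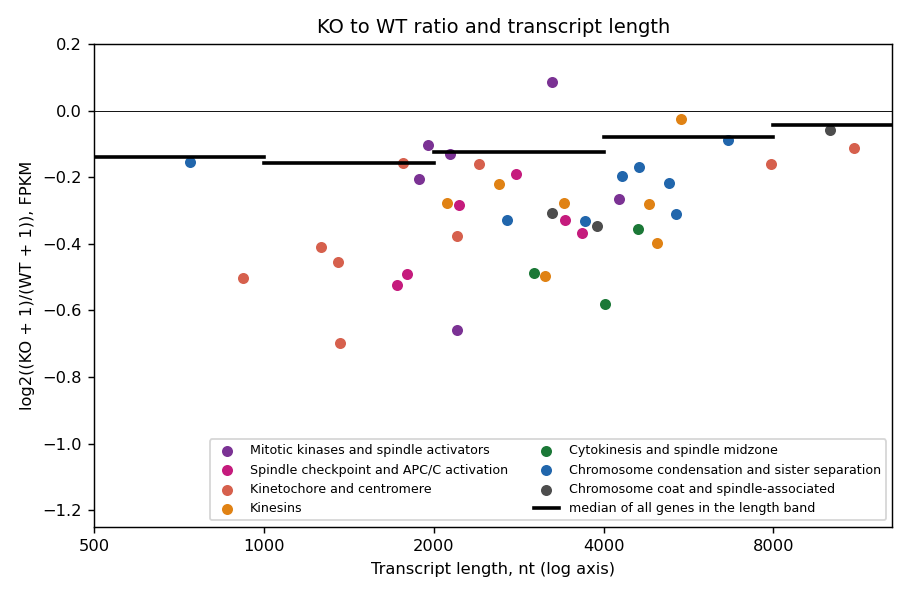
The log2 ratio of KO to WT (vertical axis, FPKM with a pseudocount of 1) against transcript length (log axis, median length of the transcripts of each gene) for the 42 genes, coloured by role. Black lines are the medians of all genes in 5 length bands, and 39 members lie below the line of their band.

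Other genes of division, taken as 7 lists of genes outside the set, had values on the same side to differing degrees. Of 169 such genes measured, 120 lay below the all-gene median, the joint median was -0.24, and 14 were at least 1.5-fold lower, against 3.60% of all genes measured. None was 1.5-fold higher, against 1.54%. The list of mitotic cyclins and Cdk1 regulators had the lowest median, -0.47 over 15 genes, with 3 at least 1.5-fold lower (3.60% of all genes). Ccnb1, the main cyclin B gene, was at 66.1 FPKM in KO and 95.4 FPKM in WT (-0.52). Cdk1 itself was at 29.4 FPKM in KO and 43.4 FPKM in WT (-0.55), and the phosphatase gene Cdc25c, which activates Cdk1, at 6.86 FPKM in KO and 11.1 FPKM in WT (-0.62). The lowest was Ccnf, at 8.22 FPKM in KO and 13.4 FPKM in WT (-0.64), and the highest Cdc25b, at 4.54 FPKM in KO and 4.47 FPKM in WT (0.019).

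DNA replication genes, which act in S phase, had a median of -0.30 over 44 genes, of which 38 lay below the all-gene median and 7 were at least 1.5-fold lower (3.60% of all genes). Pcna was at 120.0 FPKM in KO and 177 FPKM in WT, the clamp loader gene Rfc5 at 14.9 FPKM in KO and 26.3 FPKM in WT (-0.78), and Pola2 at 13.6 FPKM in KO and 12.46 FPKM in WT (0.12). The set of mitosis and kinetochore genes was therefore not singled out from S phase genes by these medians. The other spindle and cytokinesis genes (31) had a median of -0.25. Haus1, a subunit of augmin, was at 15.7 FPKM in KO and 28.5 FPKM in WT (-0.82), the beta-tubulin gene Tubb5 at 326 FPKM in KO and 454 FPKM in WT (-0.48), and Kif3a, a kinesin of cilia, at 6.31 FPKM in KO and 5.76 FPKM in WT (0.11).

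**Figure D5:**
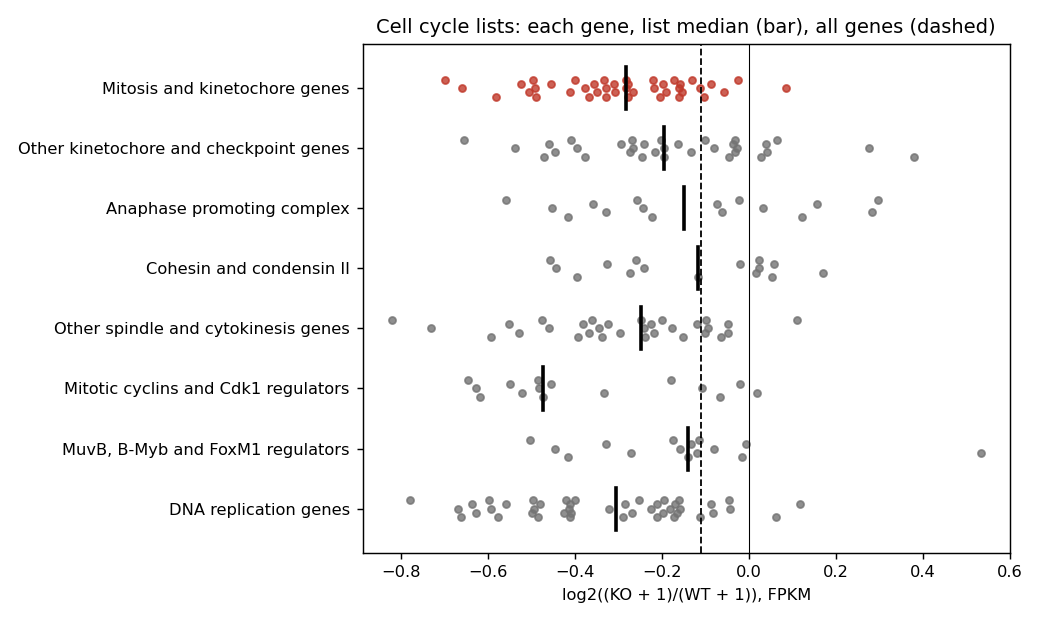
The log2 ratio of KO to WT (horizontal axis, FPKM with a pseudocount of 1) of each gene in the set (red) and in 7 other cell cycle lists (grey), with the list median as a black bar and the all-gene median dashed. The bar of the members stands at -0.28, that of mitotic cyclins and Cdk1 regulators at -0.47 and that of cohesin and condensin II at -0.12.

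The remaining lists were nearer to all genes by their medians. Of 33 measured other kinetochore and checkpoint genes, 20 lay below the all-gene median (median -0.20). Zwint was at 51.4 FPKM in KO and 60.9 FPKM in WT, the lowest was Cenpw, at 4.38 FPKM in KO and 7.48 FPKM in WT (-0.66), and the highest Apitd1, at 2.55 FPKM in KO and 1.73 FPKM in WT (0.38). The anaphase promoting complex list (16 genes) had a median of -0.15 and split evenly, with 8 genes below and 8 above: the ubiquitin-conjugating enzyme gene Ube2s was at 103 FPKM in KO and 152 FPKM in WT (-0.56), and the core subunit gene Anapc2 at 6.33 FPKM in KO and 4.96 FPKM in WT (0.30). Cohesin and condensin II genes (15) had a median of -0.12, with Ncaph2 at 26.7 FPKM in KO and 37.0 FPKM in WT and the cohesin gene Smc1a at 67.0 FPKM in KO and 59.4 FPKM in WT. The 15 genes of the MuvB, B-Myb and FoxM1 regulators had a median of -0.14, with 11 below the all-gene median and 4 above. Among them Foxm1 was at 2.63 FPKM in KO and 4.15 FPKM in WT (-0.50). Rbbp4 was at 28.0 FPKM in KO and 38.4 FPKM in WT, and the MuvB subunit gene Lin37 at 4.33 FPKM in KO and 2.68 FPKM in WT (0.53).

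Markers of some cell types also differed between the libraries. Of 11 genes of fibroblast and cushion mesenchyme, 10 lay above the all-gene median, and their values summed to 663 FPKM in KO and 535 FPKM in WT. Of 11 endothelial and endocardial genes, 10 lay above it, with sums of 267 FPKM in KO and 254 FPKM in WT. Cardiomyocyte genes (15) lay on both sides, with 10 below the all-gene median and sums of 25737 FPKM in KO and 26546 FPKM in WT. The same held for 6 epicardial genes (4 above, 78.9 FPKM in KO and 68.2 FPKM in WT) and for erythroid genes. Of the erythroid genes 4 of 9 measured lay above, and all 12 summed to 5567 FPKM in KO and 5132 FPKM in WT. Among them Hba-a2 was listed at 0 in KO and 139 FPKM in WT, and Hba-a1 at 2122 FPKM in KO and 1583 FPKM in WT. Macrophage genes (7 measured, 6 above) summed to 19.6 FPKM in KO and 13.8 FPKM in WT, and the 4 smooth muscle genes (3 measured, 1 above) to 654 FPKM in KO and 736 FPKM in WT. Liver and yolk sac genes summed to 20.4 FPKM in KO and 0.695 FPKM in WT, with Afp at 16.6 FPKM in KO and 0.110 FPKM in WT and Alb listed at 0 in both. The part of tissue makeup in the values of the mitosis genes was not tested.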

How the data were processed

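RNA-seq of 1 KO and 1 WT library (100-base reads, 500 ng of RNA, 15 PCR cycles, per the labels' protocols) was available as 1 table. Its values are FPKM per gene symbol as deposited by the authors. TopHat2 2.0.6, Bowtie2 2.0.2, Cufflinks 2.0.2 and mouse build mm9 are named in the submitters' processing notes. Annotation, options and use of strand in counting are not given in the sources used here. Per the labels, the WT run was possibly filtered for read length.

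Ratios were log2((KO + 1)/(WT + 1)) for the genes whose mean reached 1 FPKM. No p-value was computed. Depth was estimated from FPKM times transcript length (GENCODE vM21, the 13948 genes with 1 RefSeq mRNA). Most of the low values, but not all, lay near whole multiples of 1 step. Within 2% of a multiple up to 5 lay 57.3% of 1315 values in KO and 61.0% of 1142 in WT, and at shifted steps at most 8.28% in KO and 10.1% in WT. The step was set at the most common of these same values, so the shifted steps are no independent check of it. The read numbers of members use the median transcript length and are approximate. The scripts were tested on simulated data.

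The members and lists were chosen with earlier results of these data known. All members are counted. Named in full were, per role, the 2 most abundant, the 2 lowest and the highest log2 ratio and every member past 1.5-fold. Per other list they were the most abundant, the lowest and the highest, and further genes were named after their values were seen (among them Cdca8, Racgap1, Cdk1, Cdc25c and most other members). Python 3.11.15, numpy 2.4.6, pandas 2.3.3 and matplotlib 3.10.9 were used.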

Additional observations from a re-analysis of the deposited data

How the results depend on the processing

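No paired analysis was possible because single libraries were compared, and for that reason no library could be left out. Under 8 other settings (pseudocounts of 0.1 and 5, no filter, a minimum mean of 5 FPKM, and 4 scalings) the median of the mitosis genes relative to all genes stayed between -0.23 and -0.14, and 35 to 40 members lay below the median of all genes. Against bands of length or level, chosen after seeing the data, it was -0.19 and -0.14. The median log2 ratio itself, -0.28 as deposited, was -0.16 with median centring, -0.15 with upper-quartile scaling, -0.17 with trimmed-mean scaling and -0.15 with quantile normalization, which remove the shift of all genes. Members at least 1.5-fold lower numbered 2 as deposited (3.60% of all genes), 3 when the pseudocount was 0.1 (6.13%), 1 (Spc24) when it was 5 (0.978%) or with trimmed-mean scaling (1.94%), and 0 with median centring (1.76%), upper-quartile scaling (1.70%) or quantile normalization (1.89%). Of 335 values of single members under these settings, 316 had the sign of the deposited value. The 19 others came from 7 genes. Depth limits Espl1, Cenpn, Cenpk and Cenpa most, with counting SEs of 0.11 to 0.14.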
